A study of Homo sapiens with 4 samples.

Results

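The BCL2 family transcripts were followed in RNA recovered with the m6A demethylase ALKBH5. The members were the rows of 10 symbols among the 26830 gene symbols of the expression table, namely the prosurvival guardians BCL2, MCL1, BCL2L1 and BCL2A1, the pore-forming effectors BAX and BAK1, and the BH3-only proteins BCL2L11, BID, PMAIP1 and BBC3. All 10 were listed, and 8 passed the filter of a mean of at least 1 TPM (a relative transcript abundance) over the libraries, as did 6487 genes in all. The cells were NOMO-1, an established human acute myeloid leukaemia line with monocytic features. There were 2 Flag-IP libraries (numbers 1 and 3), made from RNA pulled down with an anti-Flag antibody after UV crosslinking, and 2 input libraries with the same numbers, made without an antibody. Both groups came from cells carrying a lentivirus for 3xFlag-tagged ALKBH5, selected with puromycin and sorted for GFP, so both overexpressed ALKBH5. A pull-down from untagged cells is not analysed here, so how much RNA the beads and antibody retain unspecifically was not measured. The labels do not tell whether libraries of 1 group stem from separate cultures, so p-values cover only how much these libraries vary, and that variation may be technical.

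ALKBH5 is a dioxygenase that reverses N6-methyladenosine (m6A), a methyl mark found inside many mRNAs. Apoptosis through the mitochondria is set by the BCL2 family. BH3-only proteins carry stress signals, guardians bind and restrain them and the effectors, and freed BAX and BAK1 open the outer mitochondrial membrane. Leukaemia cells often depend on particular guardians, chiefly BCL2 or MCL1, and the BH3-mimetic drug venetoclax targets BCL2.

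Expression was given in TPM, relative abundances corrected for transcript length that add up to 1000000 per library. TPM hold no sequencing depth, and the counting error behind a value is therefore unknown. Structural RNAs such as ribosomal RNA and 7SL took 92.5% and 93.6% of the Flag-IP libraries and 96.8% and 96.3% of the inputs. All other genes shared the rest, so that their TPM were mostly higher in Flag-IP, and the median tested gene was 0.84 higher on the log2(TPM + 1) scale. Differences were therefore also taken on a median-ratio scale, on which the typical tested gene is set equal in all libraries. Myeloid markers fitted the label. Of 10 markers of this kind of leukaemia 9 reached 1 TPM in at least 1 library, and their summed level was 115 and 104 TPM in Flag-IP against 57.1 and 69.3 TPM in input. No listed marker of T, B, epithelial or fibroblast cells reached 1 TPM in any library, and CD3D, MS4A1 and EPCAM were listed at 0 in all of them. ALKBH5 itself, the tagged gene, was at 10.1 and 8.91 TPM in Flag-IP and 4.62 and 4.91 TPM in input. The libraries are of bulk RNA, in which fewer cells with a transcript and less of it per cell cannot be told apart.

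BCL2A1 dominated the family in both groups. This guardian, a target of NF-kB known from myeloid cells, stood at 32.6 and 26.4 TPM in Flag-IP libraries, against 11.3 and 13.04 TPM in input. No other member exceeded 3.69 TPM in any library. With structural RNAs left out of the total, BCL2A1 came to 436 and 411 TPM in Flag-IP and 353 and 357 TPM in input. It ranked at place 304 by mean input TPM among the tested genes other than structural RNAs.

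The remaining members lay close together and their order changed between the groups. In Flag-IP the means fell in the order BAX (3.56 TPM), BID (2.84), MCL1 (2.755), BCL2L1 (2.58), BAK1 (1.875), BCL2L11 (1.70), BBC3 (1.535), PMAIP1 (0.385) and BCL2 (0.290). In input the order was BAX (2.155 TPM), BCL2L1 (1.89), BID (1.495), BAK1 (1.285), MCL1 (1.25), BCL2L11 (0.685), BBC3 (0.635), PMAIP1 (0.255) and BCL2 (0.230). Many neighbours in these orders overlapped. In Flag-IP the values of MCL1 (3.44 and 2.07 TPM) spanned those of BID and BCL2L1, and in input those of BAX (1.57 and 2.74 TPM) spanned those of BCL2L1. BCL2, the guardian that names the family and the target of venetoclax, was the member with the lowest mean in both groups.

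**Figure D1:**
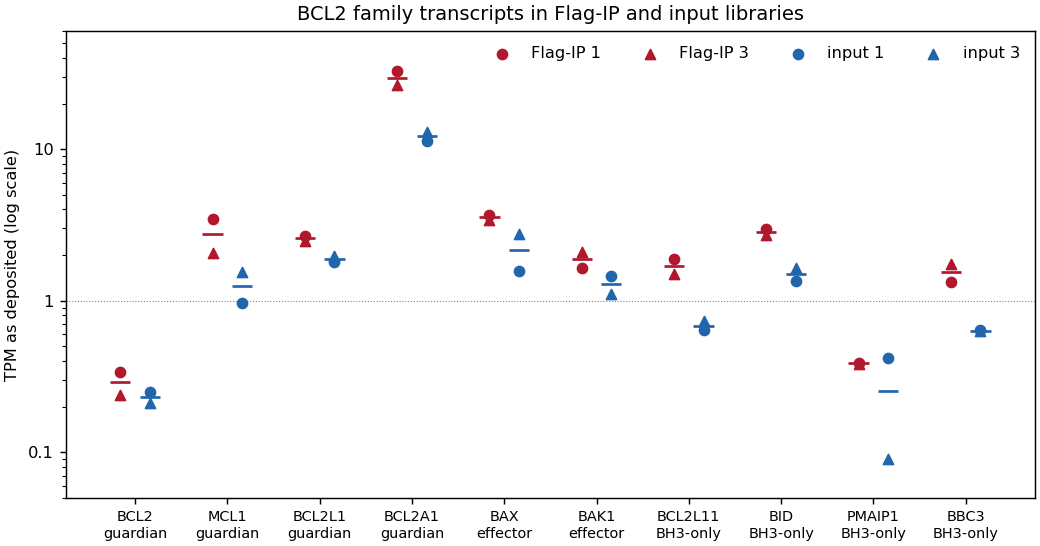
TPM as deposited (log axis) of the 10 members in each library, red for Flag-IP and blue for input, circles for number 1, triangles for number 3, bars for the mean of each pair and a dotted line at 1 TPM. BCL2A1 lies above all other members in every library, and the groups overlap for BCL2 and PMAIP1.

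As deposited, 6 of the 8 tested members were higher in Flag-IP (BCL2A1, MCL1, BAX, BCL2L11, BID and BBC3), none was lower, and BCL2L1 and BAK1 did not pass (limma on log2(TPM + 1), two-sided, Benjamini-Hochberg adjusted p below 0.05 over all genes tested). Over all tested genes 86.6% were called higher and 0.740% lower, so this count lies near that of the background. The median difference of the 8 was 0.63, against 0.84 for all tested genes. Adding 1 to each TPM makes log2 differences smaller at low TPM. BCL2L11 and BCL2A1 had similar ratios of means (2.48 and 2.43) but differences of 0.68 and 1.21. How much of the gap between the 8 and all tested genes reflects low TPM was not tested. Both Flag-IP values exceeded both input values for 8 of the 10 members, as they did for 93.1% of tested genes. The exceptions, BCL2 and PMAIP1, were the members that failed the filter, so every tested member was among the 8. For no member did both fall below, against 1.09% of tested genes. Both Flag-IP values were at least 2-fold above both input values for 3 of the 10 (BCL2A1, BCL2L11 and BBC3) and for 45.4% of tested genes. BCL2L11 and BBC3 were below 1 TPM in both inputs and passed the filter through their Flag-IP values alone. The counts of higher members that include them are therefore a description only. The shares of all tested genes also include genes that passed in this way, such as APAF1 and MFN1. In the Flag-IP libraries 7970 and 7249 genes reached 1 TPM, against 4076 and 4543 in the inputs. How far this raises the background shares was not tested. Exact permutation of 2 against 2 libraries cannot give a two-sided p below 0.333.

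On the median-ratio scale none of the 8 was higher and 1, BCL2L1, was lower, where 22.3% of tested genes were called higher and 18.6% lower. The median difference of the 8 was -0.15, against -0.01 for all tested genes, and 5 of the 8 lay below the median of all genes. Both Flag-IP libraries lay below both inputs for 5 of the 10 members (BCL2, BCL2L1, BAX, BAK1 and BID) and above them for 2 (BCL2A1 and BCL2L11). Among all tested genes the shares were 37.1% below and 37.0% above. BCL2 and PMAIP1 failed the filter and are not among those genes.

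**Figure D2:**
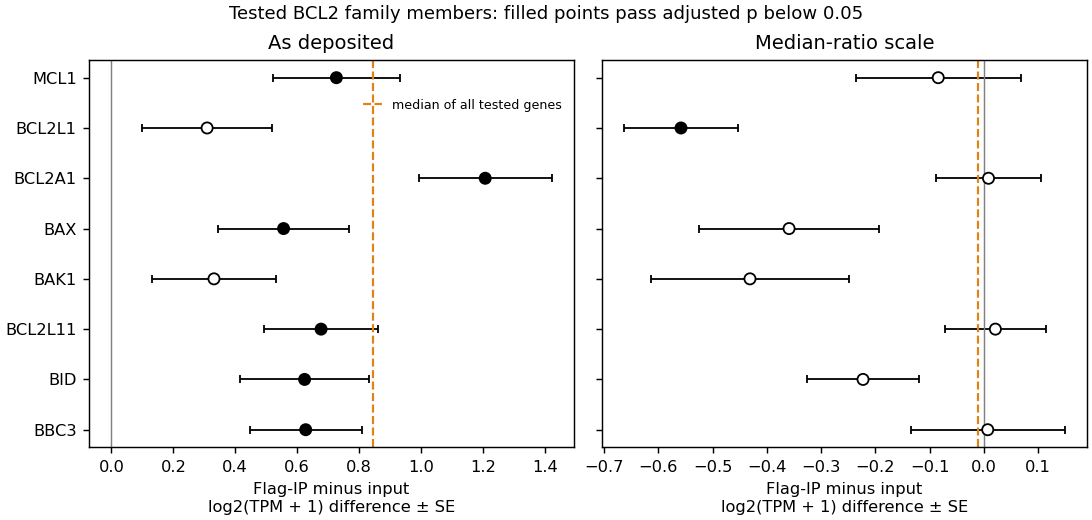
Difference in log2(TPM + 1), Flag-IP minus input, with its limma standard error for the 8 tested members, with deposited values in the left panel and median-ratio scaled values in the right panel; filled points pass an adjusted p below 0.05 and the dashed line is the median of all tested genes. On the left 6 points pass, all above 0, and on the right only BCL2L1 passes, at -0.56.

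Among the guardians, BCL2L1 was lower in the pull-down than the typical transcript. BCL2L1 encodes BCL-xL and, by an alternative splice site, the proapoptotic BCL-xS, and the gene-level values do not separate them. It was at 2.68 and 2.48 TPM in Flag-IP libraries, against 1.80 and 1.98 TPM in input. Both Flag-IP values were higher, with a ratio of means of 1.37, but the deposited difference of 0.31 ± 0.21 did not pass (log2 ± SE, limma adjusted p = 0.150), and 8.83% of tested genes had a lower one. Set against the typical gene, BCL2L1 fell by 0.56 on the log2 scale (SE 0.10, limma adjusted p = 0.00908), with scaled values of 1.55 and 1.77 in Flag-IP and 3.00 and 2.84 in input. On that scale 11.1% of tested genes had a lower difference. It stayed below 0 in all 12 alternatives that gave a value, between -0.78 and -0.39. Its call was lost without Flag-IP 1 (-0.47, limma adjusted p = 0.0610). BCL2L1 (GRCh38, chromosome 20, 31664452 to 31723989, minus strand) shares 1424 exonic bases with ABALON, an antisense gene on the opposite strand that was at 1.07 and 0.93 TPM in Flag-IP and 0.31 and 0.51 TPM in input. Whether the quantification used strand is not given in the sources used here, so part of the BCL2L1 value may belong to ABALON.

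On the median-ratio scale BCL2A1 followed the typical gene. Its ratio of means was 2.43, and its deposited difference was 1.21 ± 0.21 (log2 ± SE, limma adjusted p = 7.1e-08). After median-ratio scaling it was at 18.90 and 18.83 in Flag-IP and 18.80 and 18.69 in input, a difference of 0.01 ± 0.10 (limma adjusted p = 0.952). Other settings placed it higher. With the length trend removed BCL2A1 stood at 0.43 and passed (limma adjusted p = 0.0152), and it stood at 0.36 with quantile scaling, 0.24 with scaling without structural RNAs and 0.21 with a filter at 5 TPM, without passing (limma adjusted p = 0.0525, 0.0951 and 0.0911). Its longest annotated transcript has 1033 bases, the shortest of the 10 members (chromosome 15, 79960889 to 79971446, minus strand).

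MCL1, a short-lived guardian whose loss kills many leukaemia cells, was at 3.44 and 2.07 TPM in Flag-IP libraries, against 0.96 and 1.54 TPM in input. In TPM the Flag-IP libraries differed more from each other than the inputs did (SD 0.969 and 0.410). After median-ratio scaling the spread was similar, with 1.99 and 1.48 in Flag-IP and 1.60 and 2.21 in input. The ratio within number 1 was 3.58 and within number 3 was 1.34. MCL1 was called higher as deposited (0.73 ± 0.20, limma adjusted p = 0.000626), but not without input 1 (0.54, limma adjusted p = 0.130), without Flag-IP 1 (0.46, limma adjusted p = 0.0571) or with no filter (limma adjusted p = 0.0705). Set against the typical gene it was at -0.08 ± 0.15 (limma adjusted p = 0.683), and its scaled values overlapped between the groups. Its sign there changed when structural RNAs were left out of the scaling and without Flag-IP 3 or input 3. BCL2 was at 0.34 and 0.24 TPM in Flag-IP libraries, against 0.25 and 0.21 TPM in input, too low for the filter. Fitted with no filter it stood at 0.07 ± 0.07 as deposited and -0.21 ± 0.06 on the median-ratio scale (limma adjusted p = 0.433 and 0.113).

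The effectors were both below the typical gene in their point estimates, without passing. BAX was at 3.69 and 3.43 TPM in Flag-IP libraries, against 1.57 and 2.74 TPM in input, the input pair lying farther apart than the Flag-IP pair. Its deposited difference passed (0.56 ± 0.21, limma adjusted p = 0.0108), and was lost without input 1 (0.29, limma adjusted p = 0.427), without Flag-IP 1 (0.51, limma adjusted p = 0.0773) or with no filter (limma adjusted p = 0.0980). On the median-ratio scale BAX was at -0.36 ± 0.17 (limma adjusted p = 0.131). Without input 1 it passed there as lower (-0.61, limma adjusted p = 0.0297), and with the length trend removed it was at 0.03.

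BAK1 was at 1.65 and 2.10 TPM in Flag-IP libraries, against 1.46 and 1.11 TPM in input, and the lowest Flag-IP value lay only slightly above the highest input value. Its deposited difference of 0.33 ± 0.20 did not pass (limma adjusted p = 0.106), but passed with the length trend removed (0.48, limma adjusted p = 0.0137). Set against the typical gene it was at -0.43 ± 0.18 (limma adjusted p = 0.106), and without input 3 it passed as lower (-0.66, limma adjusted p = 0.0454). BAK1 has the processed pseudogenes BAK1P1 and BAK1P2, which could share reads with it. The ratio of BAX to BAK1 was 2.24 and 1.63 in Flag-IP and 1.08 and 2.47 in input, so the groups overlapped.

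Among the BH3-only transcripts BID was the most abundant, and the other 3 stayed below 2 TPM in every library. BCL2L11, which encodes BIM, a binder of all guardians, was at 1.89 and 1.51 TPM in Flag-IP libraries, against 0.64 and 0.73 TPM in input. Its ratio of means, 2.48, was the highest of the 10. It was called higher as deposited (0.68 ± 0.19, limma adjusted p = 0.000423). Because it passed the filter through Flag-IP alone, this call is a description only. Set against the typical gene, BCL2L11 lay at 0.02 ± 0.09 (limma adjusted p = 0.872). Its sign there changed with quantile scaling, no filter or the length trend removed. BCL2L11 shares 727 exonic bases with MIR4435-2HG on the opposite strand, which was at 1.62 and 1.19 TPM in Flag-IP and 0.67 and 0.46 TPM in input.

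BBC3, which encodes PUMA, a direct target of p53, was at 1.32 and 1.75 TPM in Flag-IP libraries, against 0.64 and 0.63 TPM in input. The inputs were nearly equal and both Flag-IP libraries were higher. Its deposited difference was 0.63 ± 0.18 (limma adjusted p = 0.000829), again a description only, since BBC3 passed the filter through Flag-IP alone. Set against the typical gene it was at 0.01 ± 0.14 (limma adjusted p = 0.974), with overlapping scaled values and a sign that changed with quantile scaling, no filter, a pseudocount of 0.1 or with Flag-IP 3 or input 3 left out. BID, which caspase-8 cleaves to link death receptors to mitochondria, was at 2.95 and 2.73 TPM in Flag-IP libraries, against 1.35 and 1.64 TPM in input. Its deposited difference was 0.62 ± 0.21 (limma adjusted p = 0.00364), and was lost without input 1 (0.54, limma adjusted p = 0.132). On the median-ratio scale BID was at -0.22 ± 0.10 (limma adjusted p = 0.134), both Flag-IP values below both inputs.

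PMAIP1, which encodes NOXA, a BH3-only protein that binds MCL1 and BCL2A1, was at 0.39 and 0.38 TPM in Flag-IP libraries, against 0.42 and 0.09 TPM in input. The input values differed so much that they spanned the Flag-IP pair, and no test was made under the filter. Fitted with no filter it was at 0.15 ± 0.14 as deposited and -0.16 ± 0.21 on the median-ratio scale (limma adjusted p = 0.405 and 0.660).

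**Figure D3:**
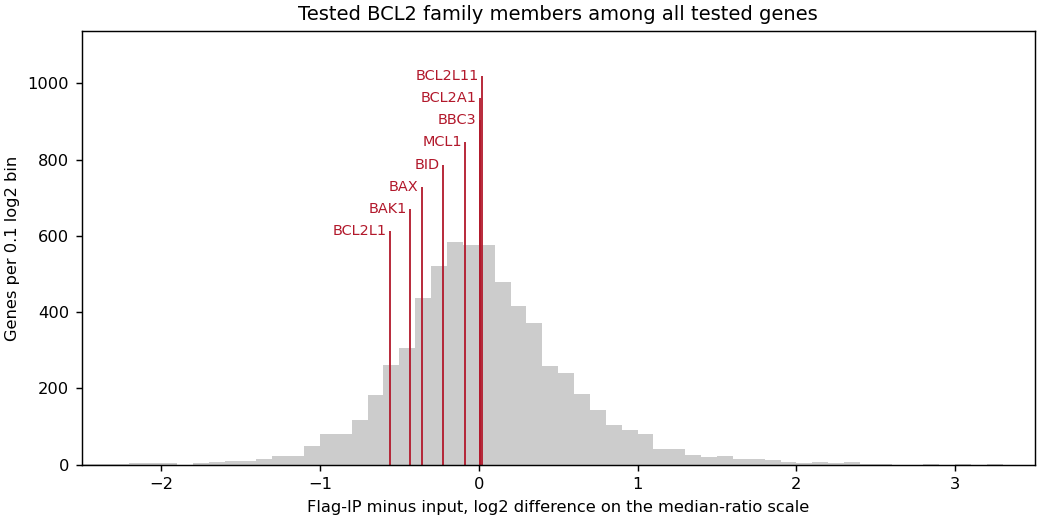
Number of tested genes per bin of 0.1 in the log2 difference on the median-ratio scale, Flag-IP minus input (grey, 5 genes outside the axis left out), with the 8 tested members as red lines whose heights only separate the labels. BCL2L1, BAK1, BAX and BID lie left of the peak, and BCL2A1, BBC3 and BCL2L11 lie within 0.03 of 0.

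Ratios within a library do not depend on how the library is scaled, so the composition of the family was compared as the share of each member in the summed TPM of the 10. The sum was 50.99 and 43.04 TPM in Flag-IP and 20.38 and 23.71 TPM in input. BCL2A1 made up 64.0% and 61.2% of it in Flag-IP and 55.4% and 55.0% in input. BCL2L1 made up 5.26% and 5.76% in Flag-IP and 8.83% and 8.35% in input, and for neither member did the groups overlap. Nor did they overlap for BID (5.79% and 6.34% in Flag-IP, 6.62% and 6.92% in input). The same held for BCL2 (0.667% and 0.558% in Flag-IP, 1.23% and 0.886% in input). BCL2L11 was separate too, with the larger share in Flag-IP (3.71% and 3.51%, against 3.14% and 3.08% in input). The direction for BID depended on BCL2A1. With BCL2A1 left out of the sum, BID had the larger share in Flag-IP (16.08% and 16.36%, against 14.85% and 15.37% in input). BCL2L1 and BCL2 then still had smaller shares in Flag-IP, and BCL2L11 a larger one, without overlap. How often shares of other genes separate in this way was not assessed.

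The ratio of BCL2A1 to BCL2L1 was 12.2 and 10.6 in Flag-IP, against 6.27 and 6.59 in input. Another guardian, MCL1, had overlapping shares, 6.75% and 4.81% in Flag-IP and 4.71% and 6.50% in input. By role, guardians took 74.5% ± 3.06 of the sum in Flag-IP and 70.5% ± 0.398 in input (mean ± SD, n = 2 in each group), effectors took 11.7% ± 1.68 in Flag-IP and 15.5% ± 0.969 in input, and BH3-only members took 13.8% ± 1.38 in Flag-IP and 14.0% ± 1.37 in input. The groups did not overlap for guardians and effectors and overlapped for BH3-only members. With BCL2A1 left out the guardians' share was 32.0% ± 4.60 in Flag-IP and 34.0% ± 1.30 in input, and these pairs overlapped. The BH3-only share was then 36.9% ± 1.75 in Flag-IP and 31.3% ± 3.25 in input, and the effectors' share 31.1% ± 2.85 in Flag-IP and 34.7% ± 1.94 in input, with no overlap for either. These shares were not tested.

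**Figure D4:**
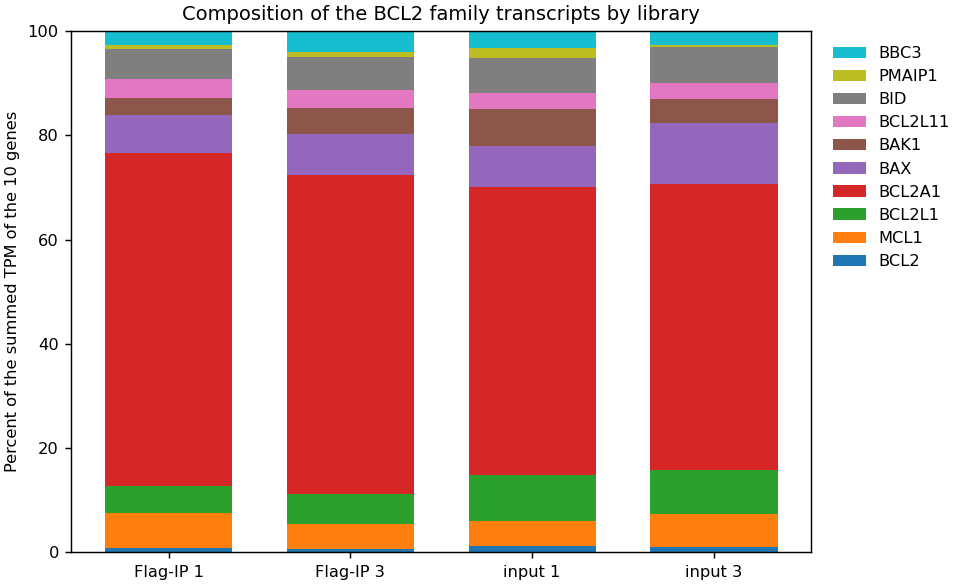
Percent of the summed TPM of the 10 members taken by each member, 1 bar per library, Flag-IP on the left and input on the right. BCL2A1 (red) takes 61.2% to 64.0% of the Flag-IP bars and 55.0% to 55.4% of the input bars, and the BCL2L1 part (green) is smaller in both Flag-IP bars.

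Because ALKBH5 acts on m6A, the letters of the core m6A consensus, GGACT, were located in the members' mRNAs. m6A itself was not measured here. The search covered the sense strand of 1 principal transcript per gene in GENCODE 29 (GRCh38). Of 5964 tested protein-coding genes 90.7% held at least 1 match, with a median of 0.957 matches per kilobase. All 10 members held matches. BBC3 had the densest, 7 in 1838 bases, above 99.6% of those genes, and BCL2L1 had 6 in 2610 bases, above 94.2%. BAX, BAK1, BID, BCL2L11 and MCL1 lay above 96.1%, 94.6%, 90.2%, 89.7% and 86.1%. These densities hold for the transcript searched, which had 793 bases for BAX and 1522 for BCL2L11. The longest annotated transcripts of these 2 genes have 1358 and 5231 bases and were not searched. BCL2A1 had 1 match in 1033 bases, near the median, and BCL2 3 in 7461 bases, above 15.3%. BCL2L1, lower relative to the typical gene, and BBC3, at the typical gene, were both among the dense transcripts, as were BAX and BAK1. Whether match density goes with the difference was not tested.

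The match nearest the stop codon is shown for 5 members chosen after their values were seen, to set sequence beside the values above, with 10 bases on each side and GGACT in capitals.
BCL2L1 (3′ UTR, chr20:31665374-31665398, minus strand): gcaaggaccaGGACTccctcctcac
BCL2A1 (coding sequence, chr15:79971064-79971088, minus strand): ggctggctcaGGACTatctgcagtg
MCL1 (3′ UTR, chr1:150577292-150577316, minus strand): ttatgcagttGGACTccaagctgta
BAX (3′ UTR, chr19:48961643-48961667, plus strand): cagctgccttGGACTgtgtttttcc
BBC3 (3′ UTR, chr19:47221759-47221783, minus strand): tggacgtcagGGACTcggggggcag
In MCL1, BAX and BBC3 this match lies 72, 20 and 32 bases past the last coding base, and in BCL2L1 564 bases past it. In BCL2A1 the only match lies in the coding sequence, 483 bases before its end. A match shows where these letters stand and does not show a methylated site.

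Other genes of the mitochondrial pathway were counted in lists, on the median-ratio scale and beside the same background of 22.3% higher and 18.6% lower. Among 13 other BCL2 family genes 5 were tested, of which none was higher and BCL2L13, an atypical member and mitophagy receptor, was lower. BCL2L13 was at 2.53 and 2.32 TPM in Flag-IP and 1.41 and 1.47 TPM in input (-0.33 ± 0.11, limma adjusted p = 0.0493). This call was lost without any 1 of the 4 libraries (-0.40 to -0.26, limma adjusted p = 0.0795 to 0.218), with no filter (-0.36, limma adjusted p = 0.0885) and when scaled without structural RNAs (-0.18). BNIP3L, a mitophagy receptor, was at -0.33 ± 0.12 and did not pass (limma adjusted p = 0.0765). The median of the 5 was -0.15, close to that of the 8 tested members.

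Of 16 caspases, apoptosome parts and their inhibitors 8 were tested, with 2 higher, none lower and a median of -0.02. BIRC6, a giant inhibitor of apoptosis proteins that also acts as a ubiquitin ligase, was at 25.2 and 17.5 TPM in Flag-IP and 1.86 and 2.30 TPM in input (1.79 ± 0.12, limma adjusted p = 0.000523; 1.19 with the length trend removed, limma adjusted p = 0.00101). APAF1, the scaffold that binds cytochrome c, was at 2.66 and 1.51 TPM in Flag-IP and 0.44 and 0.45 TPM in input (0.44 ± 0.13, limma adjusted p = 0.0348). With both inputs below 1 TPM, APAF1 passed the filter through its Flag-IP values alone, so the count of higher genes in this list is a description only. It did not pass without Flag-IP 1 (0.28), input 1 (0.52) or input 3 (0.43), nor with quantile scaling (0.27) or the length trend removed (0.19). CYCS, which encodes cytochrome c and has processed pseudogenes, was at -0.28 ± 0.14 and did not pass (limma adjusted p = 0.143).

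Of 12 mitochondrial partners 11 were tested, with 1 higher, 1 lower and a median of -0.04. MFN1, a fusion factor of the outer membrane, was higher (0.54 ± 0.11, limma adjusted p = 0.0129), but not without Flag-IP 1 (0.42) or input 3 (0.50). It too passed the filter through Flag-IP alone (3.11 and 2.08 TPM in Flag-IP, 0.54 and 0.51 TPM in input), so this count is likewise only a description. BCAP31, a partner of caspase-8 at the endoplasmic reticulum, was lower (-0.46 ± 0.12, limma adjusted p = 0.0269), but not without input 1 (-0.35), Flag-IP 1 (-0.46) or Flag-IP 3 (-0.43), when scaled without structural RNAs (-0.27) or with the length trend removed (-0.18). VDAC2, a channel that recruits BAX and BAK1 to mitochondria, was at -0.07 ± 0.10 and VDAC1 at -0.32 ± 0.11, and neither passed (limma adjusted p = 0.620 and 0.0573).

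Of 9 death receptor genes 3 were tested, with 1 higher, none lower and a median of -0.08. TNFRSF10B, a receptor for TRAIL, was at 2.96 and 2.87 TPM in Flag-IP and 0.54 and 0.71 TPM in input (0.56 ± 0.11, limma adjusted p = 0.0108), but did not pass without Flag-IP 3 (0.45, limma adjusted p = 0.0545). Its inputs were both below 1 TPM, so it also passed the filter through Flag-IP alone, as did FADD, and the count is a description only. FADD and TNFRSF1A, at -0.23 and -0.08, did not pass (limma adjusted p = 0.162 and 0.574). Of 12 genes of p53 and of MCL1 turnover 6 were tested, with 3 higher (HUWE1, FBXW7 and USP9X), none lower and a median of 0.34.

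All of these 3 act on MCL1 protein. HUWE1, a ubiquitin ligase for MCL1, was at 46.5 and 36.8 TPM in Flag-IP and 7.32 and 8.57 TPM in input (1.06 ± 0.10, limma adjusted p = 0.00122), and was at 0.49 with the length trend removed (limma adjusted p = 0.00977). FBXW7, another ligase component, was higher by 0.55 ± 0.10 (limma adjusted p = 0.00934), but not without Flag-IP 1 (0.45), and by 0.35 with the length trend removed (limma adjusted p = 0.0397). Its inputs (0.60 and 0.74 TPM) were below 1 TPM, so it passed the filter through Flag-IP (3.63 and 2.57 TPM) alone, which makes this count, too, a description only. USP9X, which removes ubiquitin from MCL1, was higher by 0.54 ± 0.12 (limma adjusted p = 0.0147), but not without Flag-IP 1 (0.43) or input 3 (0.50), and with the length trend removed it was at 0.06.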

How the data were processed

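The authors deposited TPM per gene symbol for 4 libraries, rounded to 2 decimals, made with the aligner STAR and the quantifier RSEM on GRCh38 per the submitters' processing notes; the sources used here name no versions and no annotation. Names were matched to GENCODE 29 (23794 symbols directly, 24 by an older symbol). Genes averaging 1 TPM or more were fitted with limma 3.58.1 in R 4.3.3 on log2(TPM + 1), with a mean-variance trend, for Flag-IP against input. Median-ratio scaling divided each library by the median ratio of its tested genes to their geometric means (factors 1.73 and 1.40 for Flag-IP 1 and 3, 0.601 and 0.698 for input 1 and 3). For deposited values limma gave infinite prior degrees of freedom, so that errors follow the trend alone and p-values may be too small. The fit was checked on simulated data in which few genes changed and no shift ran through a whole library. The deposited values do hold such a shift, so the check does not cover it. Pathway genes named were, per list, the 2 most abundant tested genes and the 2 with the largest absolute median-ratio difference. The members, lists and tests were chosen with earlier results of these data known. Alternatives were other filters, a pseudocount of 0.1, no trend, a replicate block, quantile scaling, scaling without structural RNAs, a loess correction for transcript length (span 0.5) and each library left out. A crossed replicate block was added after seeing the data.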

Additional observations from a re-analysis of the deposited data

How the results depend on the processing

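With 2 libraries a group, each fit that leaves 1 out assumes that the lone library varies like the other group. As deposited, 6 members were higher; with a filter at a mean of 5 TPM, which only BCL2A1 passed, 1 was, with no filter 4 were, and with 1 library left out 3 to 6 were, 3 without input 1. With the length trend removed 7 were higher as deposited, BAK1 being gained. No member was lower in any alternative. On the median-ratio scale 1 member was lower; with the filter at 5 TPM 0 were, with the crossed replicate block 2, and with 1 library left out 0 to 2. With the length trend removed 1 member, BCL2A1, was higher there. Over all genes the filter at 5 TPM gave 1272 higher and 25 lower as deposited and 392 higher and 355 lower on the median-ratio scale; the length trend removed gave 26 lower as deposited; scaling without structural RNAs gave 656 lower and 2037 higher. With 1 library left out, 3939 to 5628 were higher and 28 to 57 lower as deposited, and 961 to 1135 higher and 587 to 837 lower on the median-ratio scale, the fewest lower without Flag-IP 1.

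On the median-ratio scale some differences changed sign, none of them past the threshold under either setting. MCL1 was at 0.0734 with scaling without structural RNAs and between -0.25 and 0.0709 with 1 library left out; BCL2A1 was at -0.0312 with no filter; BAX at 0.0319 with the length trend removed; BCL2L11 at -0.16 with the length trend removed, -0.0004 with no filter and -0.13 with quantile scaling; BBC3 at -0.0129 with no filter, -0.0012 with a pseudocount of 0.1, -0.17 with quantile scaling, and between -0.16 and 0.17 with 1 library left out. VDAC2 was at 0.13, 0.28, 0.0694 and 0.15 with the filter at 5 TPM, the length trend removed, quantile scaling and scaling without structural RNAs; TNFRSF1A at 0.10, 0.11 and 0.12 with the filter at 5 TPM, the length trend removed and scaling without structural RNAs; FADD at 0.0518 with the length trend removed, and it passed as lower with quantile scaling (-0.42). With no filter APAF1, MFN1 and BCAP31 lost their calls (adjusted p = 0.110, 0.0528 and 0.0603). The difference in the BH3-only share ran from -1.15 to 0.801 percentage points with 1 library left out, in effectors from -5.08 to -2.70 and in guardians from 1.90 to 6.23. The cause of these changes was not tested.

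The labels do not say that equal numbers mark a shared culture, and deviations of same-numbered libraries correlated at -0.168 across genes as deposited and -0.187 on the median-ratio scale. The replicate block gave 5 members higher as deposited, BAX being lost (adjusted p = 0.0808), and 1 lower on the median-ratio scale, with 4789 and 1286 of all genes higher and 35 and 1055 lower. BCL2L13 lost its median-ratio call under the block and the crossed block (adjusted p = 0.0793 and 0.0580). The crossed block gave 8 members higher as deposited, and 5908 and 1409 of all genes higher and 58 and 1275 lower. TPM keep no depth, so the counting error of members near or below 1 TPM is unknown.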

Other observations

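Median-ratio scaled values of BCL2A1 differed by a factor of 1.011 between the highest and the lowest of the 4 libraries. None of the 6447 tested genes above 0 in every library had a smaller factor, and 12 had a smaller one than BCL2L11 (1.046). Some gene has to hold the smallest value, and this scale is itself set by the genes near the median. On the deposited scale the same 4 values of BCL2A1 run from 11.3 to 32.6 TPM. With quantile scaling the log2 difference of BCL2A1 was 0.36, and with the length trend removed it was 0.43. This pattern was noticed in the data and not tested.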
